A study of Mus musculus with 12 samples.

Results

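The NF-kB subunits and inhibitors were followed as 8 genes chosen by name, of the 21754 genes counted in 12 bulk RNA-sequencing libraries of mouse bone marrow. 5 of them encode the subunits of the transcription factor (Nfkb1, Nfkb2, Rel, Rela and Relb). The other 3 encode proteins of the IkB family (Nfkbia, Nfkbie and Nfkbiz). They are listed here as inhibitors by family, whatever the action of each. The libraries came from untreated wild-type C57BL/6 mice, an inbred strain, for which the study's methods name adults of both sexes. 4 populations were sorted by flow cytometry, with 3 libraries each: pre-cDCs, which lack Siglec-H on the surface and are precursors of conventional dendritic cells, Siglec-H+ precursors low in CCR9 and in B220 (CCR9lo-B220lo, called lo-lo), Siglec-H+ precursors low in CCR9 and high in B220 (CCR9lo-B220hi, called lo-hi), and CCR9-high, B220-high plasmacytoid dendritic cells (pDCs). The comparison asks how the transcripts of this pathway differ between the precursor stages that lead to pDCs and those that lead to conventional dendritic cells. Sorted cells hold unknown numbers of contaminating cells, and in such bulk RNA fewer cells of a type and less RNA per cell cannot be told apart.

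The deposited labels and the study's own source data disagree on which well of the plate holds which population. On the labels the populations follow each other in blocks of 3 wells, from pre-cDC in A1 to A3 up to pDC in A10 to A12. The source data of the study list 28 transcription factors in 12 named samples, and each sample had 1 well in which none of the 378 possible gene pairs stood in another order, while at least 7 pairs did in the next best well. Nfkb1 and Relb are among the 28 genes. Without them, the same wells had 0 of the 325 pairs of the other 26 genes in another order. This match was used here: pre-cDC was taken from A1, A5 and A9, lo-lo from A2, A6 and A10, lo-hi from A3, A7 and A11, and pDC from A4, A8 and A12, numbered as replicates 1 to 3. The label names another population in 8 wells and the same population in 4 (A1, A6, A7 and A12, 1 well of each population). Every population below is therefore the one given by the match and not by the label, and every test below rests on it. Grouped by the labels, no gene of 15293 tested passed, and none of the 8 genes did.

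The genes of the sort were checked in these groups. Siglech, the gene of Siglec-H, was at 206 to 443 counts per 1000000 (CPM, scaled for library composition) in pre-cDC, 729 to 999.6 in lo-lo, 1987 to 2367 in lo-hi and 2537 to 2992 in pDC. Ccr9 was at 21.6 to 44.6 CPM in pre-cDC, 62.8 to 69.3 in lo-lo, 219 to 251 in lo-hi and 397 to 520 in pDC. Neither gene overlapped between any populations. Y-linked genes put all 4 replicate 3 libraries apart, with a sum over 4 genes of 68.6 to 154 CPM against 2.21 to 7.93 CPM in the other 8, and each population holds 1 of these 4 libraries. The study sorted its populations from 3 mice, and the labels do not say that a replicate number is a mouse. The tests below do not block on the number, and where a block changes a call of the 8 genes the blocked value is given beside it. Total counts ranged from 1801463 to 5995971 per library, so that 3 counts, taken as the floor, came to 0.5 to 1.67 CPM before scaling. Markers of granulocytes were high in every library. Their 8 genes summed to between 3254 and 20770 CPM, highest in lo-hi replicate 1 (20770) and lo-lo replicate 1 (17820).

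NF-kB acts as a dimer of subunits that share a DNA-binding Rel homology domain. In resting cells, inhibitors of the IkB family hold most dimers in the cytoplasm. In the canonical pathway, receptors such as Toll-like receptors activate the IKK kinases, which mark the inhibitors for destruction and free dimers of RelA or c-Rel with the product of Nfkb1. In the non-canonical pathway, receptors such as CD40 lead to processing of the Nfkb2 precursor, which pairs mainly with RelB. Several inhibitor genes are themselves induced by NF-kB, which makes them part of negative feedback loops. In dendritic cells, NF-kB is known for its part in maturation and cytokine production, and RelB for its part in the development of some conventional dendritic cells.

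All 8 genes passed the filter, a mean count of 1 or more per library. The lowest count of any of them was 18, for Relb in lo-lo replicate 2, and the highest was 1509, for Nfkbia in pDC replicate 1. In the test of all 4 populations together, 5 of the 8 genes passed an adjusted p of 0.01 (quasi-likelihood test of edgeR, with adjustment over every gene tested), against a background of 19.9% of all 15293 genes. They were Nfkb1, Nfkb2, Relb, Nfkbie and Nfkbiz. Rel, Rela and Nfkbia did not pass. Their highest population mean exceeded their lowest by 1.55, 1.38 and 1.42 times, against 1.96 times for Nfkb1, 2.17 for Nfkbie, 3.09 for Nfkb2, 3.27 for Nfkbiz and 3.82 for Relb. Nfkb1 was the only one of the 8 with its highest mean in pre-cDC, and 6 of the others had theirs in pDC. The mean of Rela was 78.7 CPM in lo-hi and 78.3 in pDC. In the 4 wells whose label and match name the same population, 5 of the 8 genes stood in the order of their 4 means. These were Nfkb1, Rel, Relb, Nfkbia and Nfkbiz, while 3 (Nfkb2, Rela and Nfkbie) did not. Each of these wells is the only such library of its population and is itself part of the mean. Part of the agreement is therefore built in, and it is no separate check of the match.

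**Figure D1:**
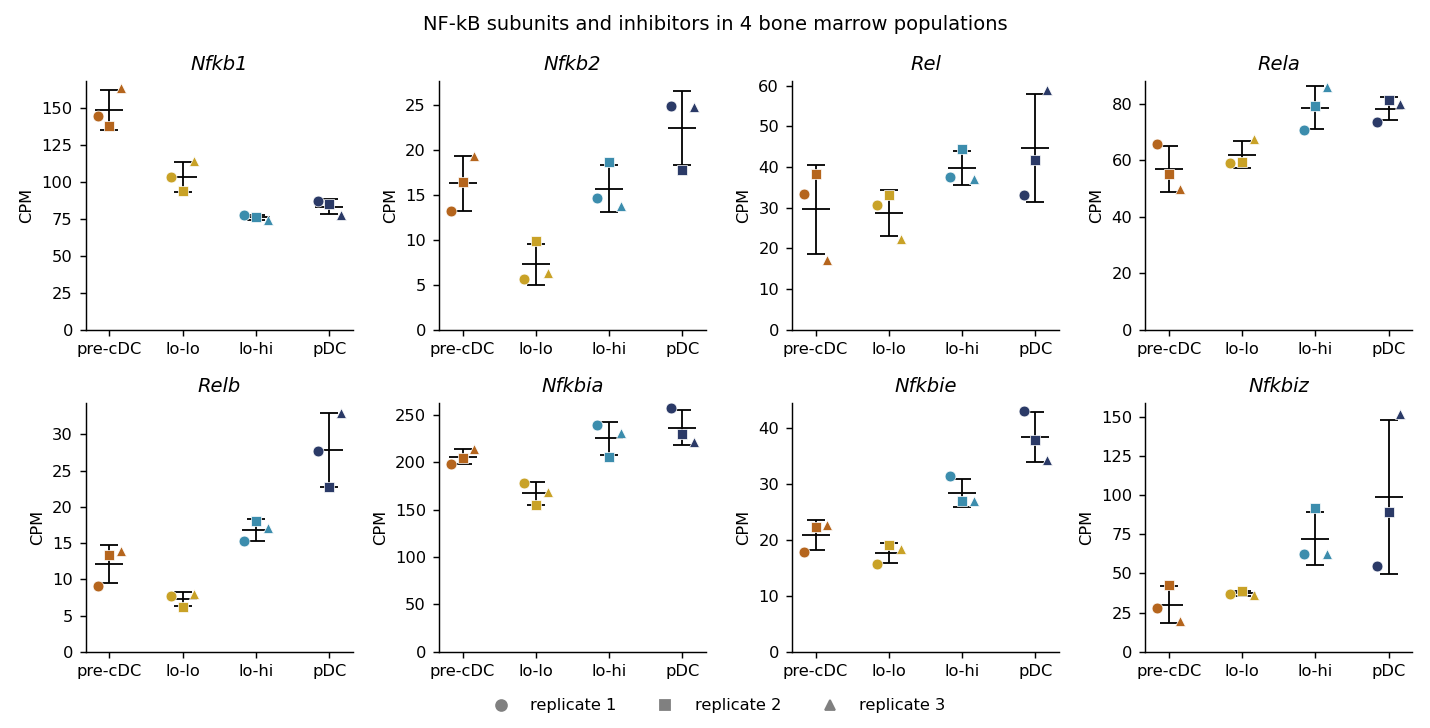
CPM (counts per 1000000, scaled for library composition) of the 8 genes in each of the 12 libraries, by population. Symbols are replicates, and the black lines give the mean and SD of 3 libraries. Nfkb1 falls from 149 CPM in pre-cDC to 75.9 in lo-hi, while Relb is lowest in lo-lo (7.29) and highest in pDC (27.8).

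Nfkb1 encodes the precursor of the subunit that pairs with RelA and c-Rel in the canonical pathway (chr3:135584655-135691547 on GRCm38, minus strand). It was at 144, 138 and 164 CPM in the 3 pre-cDC libraries and at 103, 93.5 and 114 CPM in lo-lo. In lo-hi it was at 77.3, 76.1 and 74.4 CPM, and in pDC at 87.4, 85.0 and 77.7 CPM. No 2 populations overlapped, although lo-hi and pDC lay next to each other. The mean fell from 149 ± 13.5 CPM in pre-cDC to 75.9 ± 1.45 CPM in lo-hi (SD, n = 3 each). On the log2 scale, the difference of lo-hi from pre-cDC was -0.97 ± 0.15 (SE), which is 1.96-fold lower, with an adjusted p of 2.62e-05. That of pDC from pre-cDC was -0.83 ± 0.15, with an adjusted p of 7.75e-05. From high to low, the order was pre-cDC, lo-lo, pDC and lo-hi, and no neighbours in it passed. Lo-lo against pre-cDC had a difference of -0.52 (adjusted p = 0.0323), pDC against lo-lo -0.31 (adjusted p = 0.144) and pDC against lo-hi 0.14 (95% interval -0.17 to 0.45). The test of all 4 populations gave an adjusted p of 3.21e-05 and passed without each of the 12 libraries in turn. 3 of the 6 monocyte markers listed, Fn1, F13a1 and Ccr2, were likewise lower in lo-lo, lo-hi and pDC than in pre-cDC. Fn1 was at 68.1 ± 5.54 CPM in pre-cDC and 14.5 ± 3.16 in lo-lo. Ly6c2, the most abundant of the 6, did not follow them, at 2011 to 2332 CPM in pre-cDC, 1888 to 2023 in lo-lo, 2375 to 2590 in lo-hi and 2376 to 3225 in pDC. The part of these markers in the result was not tested.

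Nfkb2 encodes the precursor processed in the non-canonical pathway (chr19:46304320-46312385, plus strand). It was at 13.2, 16.4 and 19.3 CPM in pre-cDC, at 5.61, 9.90 and 6.25 CPM in lo-lo, at 14.6, 18.6 and 13.8 CPM in lo-hi and at 24.9, 17.7 and 24.7 CPM in pDC. The lo-lo libraries were the 3 lowest of the 12, while pre-cDC, lo-hi and pDC overlapped with each other. The mean was 7.25 ± 2.31 CPM in lo-lo, against 16.3 ± 3.04 in pre-cDC, 15.7 ± 2.60 in lo-hi and 22.4 ± 4.10 in pDC. On the log2 scale, lo-lo differed from pre-cDC by -1.18 ± 0.25 (adjusted p = 0.00408), lo-hi from lo-lo by 1.12 ± 0.26 (adjusted p = 0.00492) and pDC from lo-lo by 1.65 ± 0.24 (adjusted p = 1.04e-05). The first did not pass without pre-cDC replicate 3, lo-lo replicate 1 or lo-lo replicate 3, with an adjusted p of up to 0.0397. The second did not pass without lo-lo replicate 1, lo-lo replicate 3, lo-hi replicate 1 or lo-hi replicate 2, with an adjusted p of up to 0.0445. The last passed without each of the 12 libraries. Pre-cDC and pDC, the 2 highest means, differed by 0.47 ± 0.23 (adjusted p = 0.116). Nfkb2 overlaps Psd on the opposite strand, and the use of strand in counting was not stated, so that reads of either gene could be counted for the other. Psd was at 4.96 to 6.42 CPM in pre-cDC, at 4.47 to 5.32 in lo-lo, at 6.06 to 8.28 in lo-hi and at 8.69 to 13.9 in pDC.

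Relb encodes RelB, the usual partner of the processed Nfkb2 product (chr7:19606217-19629438, minus strand). It was at 9.08, 13.4 and 13.9 CPM in pre-cDC, at 7.68, 6.14 and 8.04 CPM in lo-lo, at 15.2, 18.1 and 17.1 CPM in lo-hi and at 27.8, 22.7 and 33.0 CPM in pDC. No 2 populations overlapped. The mean was 27.8 ± 5.12 CPM in pDC and 7.29 ± 1.01 in lo-lo, a log2 difference of 1.90 ± 0.22 (3.74-fold higher), with an adjusted p of 3.31e-07. pDC exceeded pre-cDC by 1.21 ± 0.22 (adjusted p = 8.55e-05), and lo-hi exceeded lo-lo by 1.17 ± 0.24 (adjusted p = 0.00156). The first 2 passed without each of the 12 libraries. The lo-hi against lo-lo difference did not pass without lo-lo replicate 2 (adjusted p = 0.0105) or lo-hi replicate 2 (adjusted p = 0.0115). The neighbours in the other steps of the order did not pass: pDC against lo-hi gave 0.73 ± 0.21 (adjusted p = 0.0703), lo-hi against pre-cDC 0.47 ± 0.23 (adjusted p = 0.162) and lo-lo against pre-cDC -0.70 ± 0.24 (adjusted p = 0.106).

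Rela and Rel encode RelA and c-Rel, the subunits with transactivation domains that act in the canonical pathway (chr19:5637483-5648130, plus strand, and chr11:23736847-23770970, minus strand). Rela ranged from 49.99 to 65.9 CPM in pre-cDC, from 59.1 to 67.4 in lo-lo, from 70.9 to 86.0 in lo-hi and from 73.6 to 81.5 in pDC. Every lo-hi and pDC library lay above every pre-cDC and lo-lo library. The differences were small, at 0.46 ± 0.16 on the log2 scale for lo-hi over pre-cDC (adjusted p = 0.0458) and 0.45 ± 0.16 for pDC over pre-cDC (adjusted p = 0.0306), and did not pass. Rel ranged from 17.2 to 38.2 CPM in pre-cDC, from 22.3 to 33.1 in lo-lo, from 36.9 to 44.5 in lo-hi and from 33.2 to 59.0 in pDC. Its libraries overlapped between pre-cDC and lo-lo, between lo-hi and pDC, and between pre-cDC and both of the latter. The largest difference, pDC over lo-lo, was 0.62 with a 95% interval of 0.11 to 1.13 (adjusted p = 0.0803).

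Nfkbia encodes IkB-alpha, the main feedback inhibitor (chr12:55489410-55492647, minus strand). It had the highest counts of the 8 genes, at 198, 205 and 214 CPM in pre-cDC, 178, 154 and 168 in lo-lo, 239, 205 and 230 in lo-hi and 257, 230 and 222 in pDC. The lo-lo libraries were the 3 lowest. pDC exceeded lo-lo by 0.50 ± 0.14 on the log2 scale (1.42-fold, adjusted p = 0.0101), just outside the threshold, and passed with the replicate number as a block (adjusted p = 0.00475). Nfkbie encodes IkB-epsilon (chr17:45555703-45563169, plus strand), and was at 17.9, 22.3 and 22.6 CPM in pre-cDC, at 15.7, 19.1 and 18.3 in lo-lo, at 31.4, 26.9 and 27.0 in lo-hi and at 43.1, 37.9 and 34.3 in pDC. Pre-cDC and lo-lo overlapped, and no library of lo-hi or pDC overlapped with another population. Nfkbie was 1.86-fold higher in pDC than in pre-cDC (log2 difference 0.90 ± 0.18, adjusted p = 0.000285) and 2.19-fold higher than in lo-lo (1.13 ± 0.18, adjusted p = 2.28e-05), and both passed without each of the 12 libraries. lo-hi over lo-lo gave 0.70 ± 0.18 (adjusted p = 0.0139, and 0.00953 with the replicate block, which passed) and pDC over lo-hi 0.43 ± 0.17 (adjusted p = 0.288).

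Nfkbiz encodes IkB-zeta, an IkB protein that acts in the nucleus on a subset of NF-kB target genes (chr16:55811375-55838899, minus strand). It was at 28.1, 42.6 and 19.6 CPM in pre-cDC, at 36.9, 38.9 and 36.0 in lo-lo, at 62.3, 91.6 and 62.3 in lo-hi and at 54.8, 89.1 and 152 in pDC. Every lo-hi and pDC library exceeded every pre-cDC and lo-lo library, and the pDC libraries spread over the widest range. Nfkbiz was 3.28-fold higher in pDC than in pre-cDC (log2 difference 1.72 ± 0.37, adjusted p = 0.00375), which did not pass without pre-cDC replicate 1 (adjusted p = 0.017) or pre-cDC replicate 3 (adjusted p = 0.0242). Its adjusted p between the 4 populations was 0.00930. It did not pass with the replicate number as a block (adjusted p = 0.0185), with the size factors of DESeq2 (adjusted p = 0.0145) or without the 2 libraries richest in granulocyte markers (adjusted p = 0.0264). It did pass in the test of DESeq2 (adjusted p = 4.10e-07) and in edgeR without the filter on low counts (adjusted p = 3.05e-14). It passed in 4 of the 12 tests that left out 1 library, those without pre-cDC replicate 2, lo-hi replicate 2, pDC replicate 1 or pDC replicate 3. In the other 8 its adjusted p reached up to 0.0297. For lo-hi over pre-cDC, the difference was 1.28 ± 0.37 (adjusted p = 0.0316, and 0.000925 in DESeq2, which passed).

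The replicates of Rel and Nfkbiz differed along with the share of counts on mitochondrial genes, and those of Nfkb1 mostly against it. This share ranged from 3.0% in pre-cDC replicate 3 to 12.3% in pre-cDC replicate 2. It was also highest in replicate 2 of lo-lo (11.5%) and lo-hi (10.7%), and in replicate 3 of pDC (9.99%). A part of the replicate apart from the share was not tested, and pairs within a population share libraries. Within populations there are 12 pairs of replicates, and in 11 of them the library with the higher mitochondrial share had the higher Rel. The same count held for Nfkbiz. For Nfkb1 it was 1 of 12, for Nfkbia 2, for Nfkbie 3, for Nfkb2 and Relb 6 each and for Rela 7. These pairs were counted for the 8 genes only, so how common such counts are among all genes is not known. A test with the mitochondrial share as a covariate, chosen after seeing these values, called all 8 genes between the 4 populations, against a background of 28.6% of all genes tested. In it, Nfkbiz had an adjusted p of 0.00380, Rel of 0.00797, Rela of 0.00450 and Nfkbia of 0.000151. The log2 difference of pDC over lo-lo was 0.59 for Rel and 1.27 for Nfkbiz in that test, against 0.62 and 1.38 without the covariate.

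Few of the 8 genes passed between populations that lie next to each other in the sort by Siglec-H, B220 and CCR9. This order is not a single line of descent. In the paper's cultures, Siglec-H-negative pre-cDCs yielded conventional dendritic cells, while lo-lo cells yielded both these and pDCs. The words from and to therefore give only the direction of a difference. For lo-lo against pre-cDC, 1 of 8 passed, Nfkb2, which was lower in lo-lo. Of all genes 3.16% passed there, 1.55% as lower and 1.61% as higher. From lo-lo to lo-hi, Nfkb2 and Relb passed and were higher, 2 of 8, where 5.17% of all genes passed, 2.33% as higher and 2.83% as lower. From lo-hi to pDC, none of the 8 passed in edgeR, where 0.961% of all genes passed, 0.118% as higher and 0.844% as lower. The lowest adjusted p of the 8 in edgeR was 0.0703, for Relb, which was higher in pDC. DESeq2 also called none of them, where it called 2.07% of all genes it tested. Neither call from lo-lo to lo-hi, nor the call from pre-cDC to lo-lo, passed when the 2 libraries with the highest granulocyte marker sums were left out together, a choice made after seeing the data. The adjusted p was then 0.104 for Nfkb2 and 0.027 for Relb from lo-lo to lo-hi, and 0.0567 for Nfkb2 from pre-cDC to lo-lo. The log2 differences were 1.02, 1.26 and -1.03, against 1.12, 1.17 and -1.18 with every library. This fit leaves out replicate 1 of both lo-lo and lo-hi, and fewer libraries alone can raise an adjusted p. Shares of all genes in these comparisons are not given for it. Without lo-hi replicate 2 alone, which is not among the libraries left out here, neither call from lo-lo to lo-hi passed. A part of the granulocyte markers in the lost calls was not tested.

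Among the remaining comparisons, pDC over pre-cDC gave 3 genes higher (Relb, Nfkbie and Nfkbiz) and 1 lower (Nfkb1). Of all genes 21.7% passed there, 11.4% as higher and 10.4% as lower. lo-hi over pre-cDC gave 1 lower (Nfkb1), where 13.1% of all genes passed, 6.32% as lower and 6.76% as higher. pDC over lo-lo gave 3 higher (Nfkb2, Relb and Nfkbie), where 13.8% of all genes passed, 6.71% as higher and 7.08% as lower. The median log2 difference over the 8 genes was 0.53 for pDC over pre-cDC and 0.87 for pDC over lo-lo, beside 0.05 and 0.02 over all genes tested. These comparisons share libraries and are not independent of each other.

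**Figure D2:**
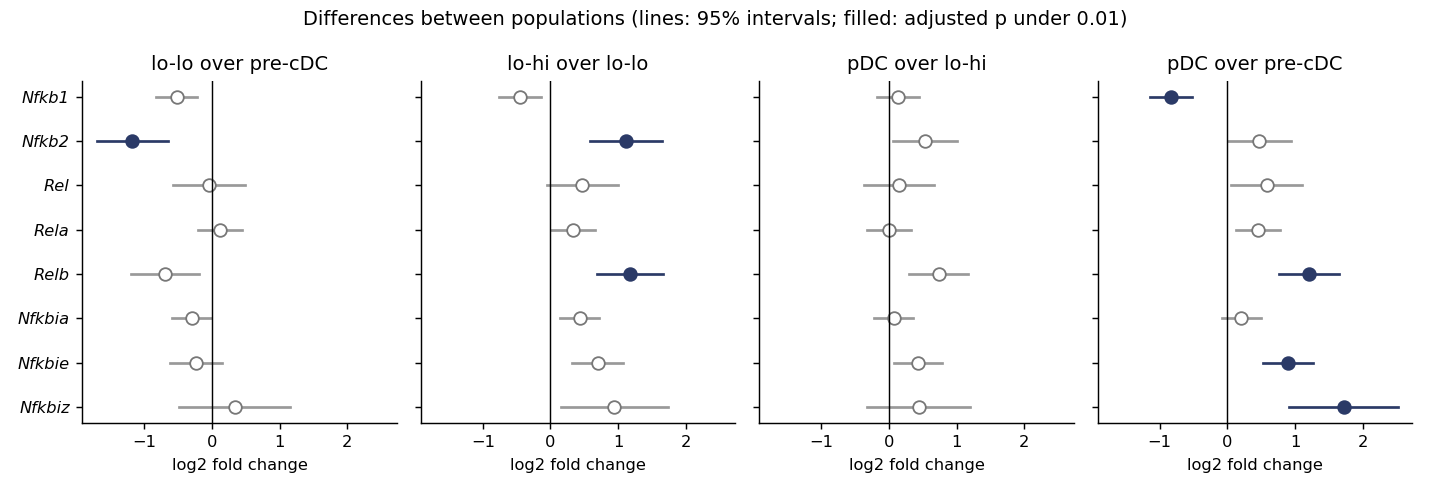
Log2 fold changes of the 8 genes in 4 comparisons, with 95% intervals from edgeR, filled where the adjusted p is under 0.01. Nfkb2 lies at -1.18 for lo-lo over pre-cDC and at 1.12 for lo-hi over lo-lo, and no gene is filled for pDC over lo-hi.

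The balance between the 2 precursor subunit genes was then read within libraries, a comparison chosen after their values were seen. The ratio of Nfkb2 to Nfkb1 counts does not depend on library scaling. It averaged 0.109 ± 0.0155 in pre-cDC, 0.0717 ± 0.0296 in lo-lo, 0.206 ± 0.0335 in lo-hi and 0.270 ± 0.0565 in pDC (SD, n = 3 each). Every lo-hi and pDC library lay above every pre-cDC and lo-lo library, and the ratio of the means was 2.48 for pDC over pre-cDC. The ratio of Relb to Rela averaged 0.219 ± 0.0726 in pre-cDC, 0.118 ± 0.0134 in lo-lo, 0.214 ± 0.0150 in lo-hi and 0.357 ± 0.0694 in pDC. The pDC libraries were the 3 highest and the lo-lo libraries the 3 lowest, while pre-cDC and lo-hi overlapped. Both ratios of pDC against pre-cDC gave a two-sided exact permutation p of 0.1, the smallest that 3 against 3 libraries can give, so that this design cannot reach 0.05. The ratios compare counts and not numbers of molecules per cell or protein.

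**Figure D3:**
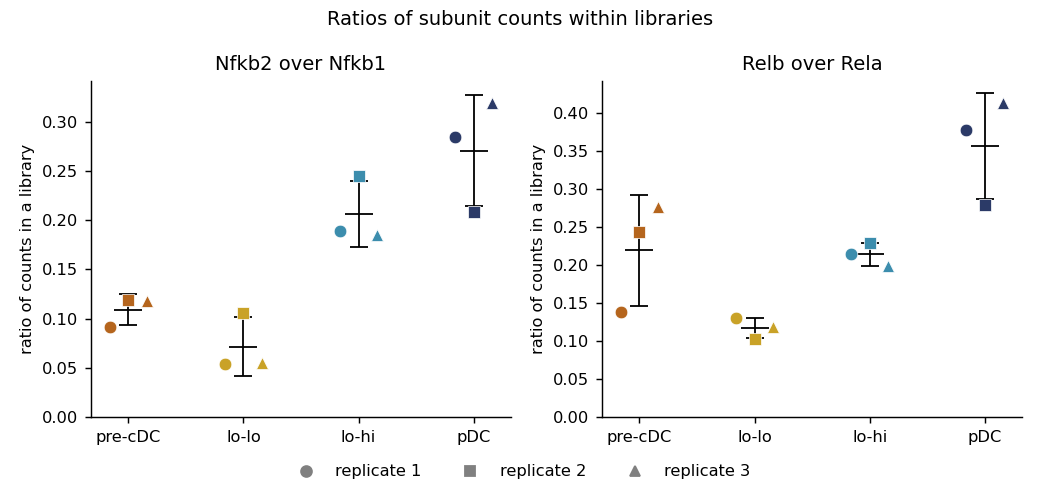
Ratios of Nfkb2 to Nfkb1 counts and of Relb to Rela counts within each of the 12 libraries, by population, with the mean and SD of 3. The mean Nfkb2 ratio is 0.0717 in lo-lo and 0.270 in pDC, and the mean Relb ratio 0.118 and 0.357.

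Sequence upstream of the start sites was available for 5 of the 8 genes (Nfkb2, Rel, Rela, Nfkbia and Nfkbie), with 7 start sites, from RefSeq on GRCm38.p6. The 250 bases before each site were searched on both strands for the kappa B consensus, the 10-base site of NF-kB. 4 of the 5 genes and 6 of the 7 start sites held a match, against 7.25% of all 32851 promoters searched. Rela held none. The windows below are shown because they are the stretches that several of these genes share, Nfkbia and Nfkb2 being textbook examples of NF-kB genes with such sites. They lie at chr11:23771041-23771070 (minus strand, Rel), chr12:55492657-55492686 (minus strand, Nfkbia), chr17:45555584-45555613 (plus strand, Nfkbie) and, on the plus strand at Nfkb2, chr19:46304689-46304718, chr19:46304707-46304736, chr19:46305449-46305478 and chr19:46305695-46305724, and are written 5′ to 3′ on the strand of the gene, with the match in capitals.
Rel: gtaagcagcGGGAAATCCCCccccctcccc
Nfkbia: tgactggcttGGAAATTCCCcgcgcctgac
Nfkbie: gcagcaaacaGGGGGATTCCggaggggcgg
Nfkb2, window 1: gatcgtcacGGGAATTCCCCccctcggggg
Nfkb2, window 2: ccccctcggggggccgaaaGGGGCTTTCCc
Nfkb2, window 3: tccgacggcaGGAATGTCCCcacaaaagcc
Nfkb2, window 4: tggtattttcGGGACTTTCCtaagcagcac
In the windows of Rel and in window 1 of Nfkb2, 2 matches overlap, so that the capitals run over 11 bases. The match of Nfkbia lay 29 to 20 bases before its start site. A match is a description of the letters and not a measured site. The genes with a match differed in their levels: Nfkbie and Nfkb2 passed between the populations, and Rel and Nfkbia did not.

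The genes whose levels ran most like each of the 8 were found by Pearson's r of log2 CPM over the 12 libraries, among the 6403 genes whose mean count was 50 or more. The points share libraries and population, so r is given as a description. For Nfkb1 the closest were Rab43 (0.98), Klf10 (0.97) and Myo1g (0.97). For Relb they were Prkcd (0.95), 2410006H16Rik (0.95) and Btg2 (0.95), and for Nfkb2 Cyp27a1, Lipa and Prkcd, at 0.88 to 0.89. For Nfkbie they were Cd209d, Cd74, the invariant chain of MHC class II, and Dntt, each at 0.97. For Nfkbiz they were Eid1, Pan3 and Btg1 (0.97 each), and for Nfkbia Adgre5 (0.98), Gabarap (0.96) and Ftl1 (0.92). For Rel they were Slc4a7 (0.96), Zzef1 (0.95) and the mitochondrial gene mt-Nd3 (0.94), and for Rela Sgpp1, Dennd4b and Srek1ip1 (0.93 each). Among the 8 genes themselves, r was 0.91 for Relb with Nfkbie, 0.88 for Rel with Nfkbiz and 0.85 for Relb with Nfkb2, while Nfkb1 had a negative r with each of the other 7, from -0.19 with Nfkb2 to -0.83 with Nfkbiz.

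Other genes of the pathway were read from lists by role. Of 13 receptors that signal to NF-kB, 6 passed between the 4 populations, beside 19.9% of all genes. Tlr7, the endosomal receptor for single-stranded RNA, rose from 9.71 ± 1.83 CPM in pre-cDC to 93.5 ± 3.96 in pDC (log2 difference 3.28 ± 0.20, adjusted p = 8.44e-12). Tnfrsf13b, which encodes TACI, a receptor for BAFF and APRIL, was also higher in pDC (1.64 ± 0.16). Cd40, a receptor of the non-canonical pathway, was at 7.68 ± 3.04 CPM in pre-cDC and at 2.05 ± 0.42 in pDC (-1.92 ± 0.39, adjusted p = 0.000372). Tlr2, which senses bacterial lipopeptides, fell by 1.57 on the log2 scale. The other two that passed, Tnfrsf1a and Ltbr, were also lower in pDC, and are named although the rule for naming did not take them. Thus 2 receptors were higher and 4 lower in pDC than in pre-cDC, where 11.4% of all genes passed as higher and 10.4% as lower. The median over the list was -0.64, beside 0.05 over all genes.

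Of 17 adaptors and ubiquitin ligases, 1 passed between the 4 populations, beside 19.9% of all genes. It was Card9, an adaptor downstream of C-type lectin receptors in myeloid cells, which was at 10.8 ± 3.38 CPM in pre-cDC and 2.36 ± 0.97 in pDC (-2.23 ± 0.34, adjusted p = 1.22e-05). None of the 12 IKK and upstream kinase genes passed between the 4 populations, beside the same 19.9%. In pDC over pre-cDC alone 1 passed, where 11.4% of all genes passed as higher and 10.4% as lower. It was Tab3, a partner of the kinase TAK1 (1.69 ± 0.45, adjusted p = 0.00466), named after its value was seen. None of the 3 other IkB family genes, Nfkbib, Nfkbid and Bcl3, passed, beside the same shares. Their pDC over pre-cDC differences were 0.26 ± 0.20, 0.21 ± 0.23 and -0.37 ± 0.25.

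Of 11 brakes on the pathway, 6 passed between the 4 populations, beside 19.9% of all genes. In pDC over pre-cDC 5 were higher and 1 lower, with a median of 0.40, where 11.4% of all genes passed as higher and 10.4% as lower. Tnfaip3, which encodes the ubiquitin-editing enzyme A20, was at 5.78 ± 1.86 CPM in pre-cDC, 7.24 ± 1.86 in lo-lo, 16.3 ± 1.54 in lo-hi and 18.6 ± 4.97 in pDC. It was higher in lo-hi than in lo-lo by 1.15 ± 0.26 (adjusted p = 0.00411). Otud7b, a deubiquitinase that acts on TRAF3 in the non-canonical pathway, rose by 1.81 ± 0.27 from pre-cDC to pDC (adjusted p = 9.40e-06), and Pdlim2, which targets nuclear RelA for degradation, by 1.54 ± 0.19 (adjusted p = 3.30e-07). Irak3, a decoy kinase that dampens Toll-like receptor signals, fell by 1.96 (adjusted p = 0.000632).

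Of 20 textbook target genes, 8 passed between the 4 populations, beside 19.9% of all genes. In pDC over pre-cDC 5 were higher and 2 lower, beside the same 11.4% and 10.4%, and the median over the 20 was -0.38. Gadd45b, a stress-response gene, rose from 13.1 ± 5.17 CPM in pre-cDC to 77.7 ± 9.62 in pDC (2.62 ± 0.22, adjusted p = 8.36e-10), and Traf1, a signalling adaptor, from 11.9 ± 3.58 to 70.3 ± 7.60 CPM (2.56 ± 0.20, adjusted p = 3.43e-10). Tnfaip2 fell from 41.6 ± 6.07 to 8.04 ± 1.84 CPM, and Junb, a subunit of AP-1, from 321 ± 61.9 to 119 ± 7.26 CPM. The targets thus passed in both directions. The lists were read on the same libraries as the 8 genes, and no list was tested against other genes.

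**Figure D4:**
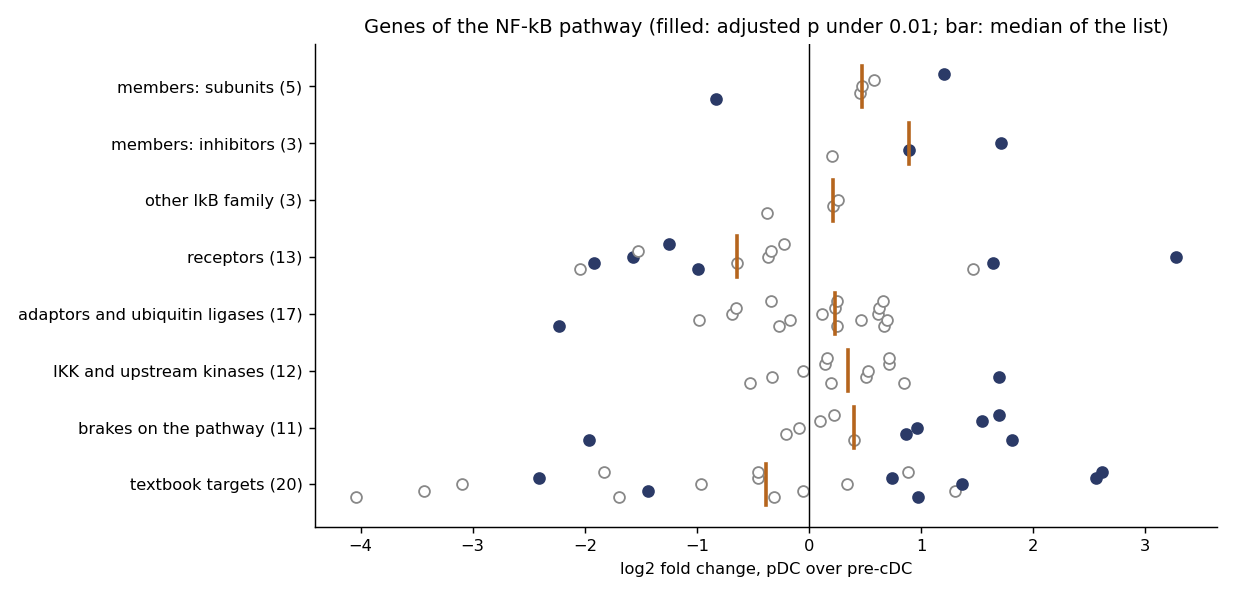
Log2 fold changes of pDC over pre-cDC for the genes of each NF-kB list (number of genes in parentheses, the first 2 lists being the 8 subunits and inhibitors), filled where the adjusted p is under 0.01, with the median of the list as a bar. The brakes have 5 filled points above 0 and 1 below, and the receptors 2 above and 4 below.

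Transcripts of other cells and of handling were read beside these results. Over all genes, 19.9% passed between the 4 populations, and in pDC over pre-cDC 11.4% passed as higher and 10.4% as lower. These shares stand beside each count in this paragraph. Immediate early genes are induced within minutes by many stimuli and by cell preparation, and 6 of 10 passed between the 4 populations. In the separate test of pDC over pre-cDC, 6 were lower and 1 was higher (Btg2). Of these, Dusp1, which was lower, passed in that comparison and not between the 4 populations. The median log2 difference of the list was -1.63 for pDC over pre-cDC. It was -0.92 for lo-lo over pre-cDC, -0.37 for lo-hi over lo-lo and -0.28 for pDC over lo-hi. The sum of the 10 genes was 1040 to 1663 CPM in pre-cDC, 725 to 1082 in lo-lo, 894 to 1102 in lo-hi and 1075 to 1655 in pDC, with overlap between lo-lo and each of the others. Its most abundant gene was Fos in pre-cDC and lo-lo, and Btg2, which was higher in pDC, in lo-hi and pDC. Similar sums thus hold different genes. Fos was at 211 to 404 CPM in pre-cDC and at 84.1 to 174 in pDC, and did not pass. The part of these genes in the differences of the 8 genes was not tested. Granulocyte markers summed to 4399 to 11490 CPM in pre-cDC, 5358 to 17820 in lo-lo, 9886 to 20770 in lo-hi and 3254 to 6632 in pDC, and none of the 8 listed genes passed. The 7 erythroid and platelet markers summed to 2516 to 9081 CPM, and none passed. The 6 monocyte markers summed to 2119 to 2238 CPM in lo-lo and to 2561 to 3320 in the other populations, and most of the sum was Ly6c2. 4 of the 6 passed between the 4 populations (Fn1, F13a1, Ccr2 and Cd14), beside 19.9% of all genes. All 4 were lower in pDC than in pre-cDC, beside 10.4% of all genes, and the median of the list was -1.93. Of the 6 B cell markers, which summed to 55.8 to 128 CPM, 1 passed (Cd79b), and Cd79a reached at most 2.73 CPM. T and NK cell markers summed to 10.2 to 50.9 CPM, with Cd3e at 0 in all lo-hi libraries and at most at 1.17 CPM elsewhere, and none of the 4 tested passed. All 8 pDC markers passed and were higher in pDC than in pre-cDC, beside 11.4% of all genes. Siglech and Ccr9 among them encode proteins used in the sort. Transcription factors served to match the wells, and the paper describes Irf7 with them. Part of this result is therefore built in. 6 of 8 conventional dendritic cell markers passed and were lower, beside 10.4%.

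**Figure D5:**
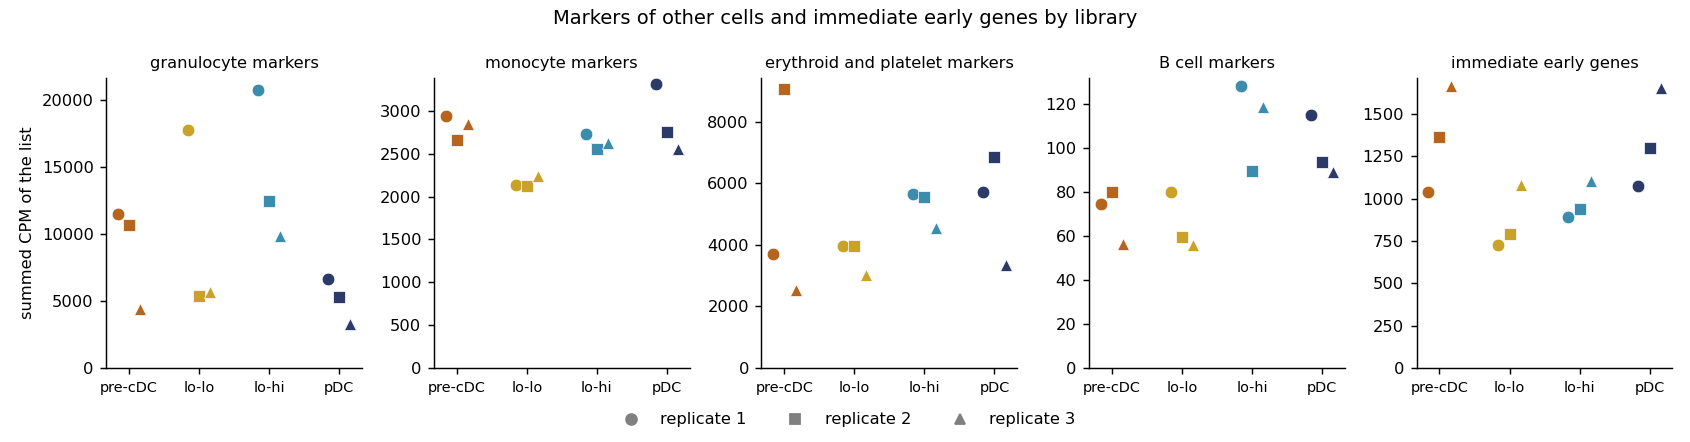
Summed CPM of the markers of other cells and of the immediate early genes in each library, by population. Granulocyte markers reach 20770 CPM in lo-hi replicate 1 and 17820 in lo-lo replicate 1 and stay at or below 6632 in pDC, and the immediate early sums of lo-lo, 725 to 1082, overlap with those of the other populations.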

How the data were processed

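RNA of 4 sorted bone marrow populations was measured in 12 bulk SCRB-seq libraries, a protocol that reads mostly the 3' ends of transcripts. The authors filtered barcodes with zUMIs, mapped the reads with STAR to GRCm38 and deposited the counts of each gene in each well, not normalized. Whether these are reads or molecular identifiers was not given in the sources used here, nor was strand use. Gene positions are those of GENCODE vM21, and 21410 of 21754 identifiers had a symbol.

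Wells were assigned as described above. Genes whose mean count was 1 or more were tested (15293, with 6461 left out) by edgeR 4.0.16 in R 4.3.3, using TMM scaling, robust quasi-likelihood fits, all 12 libraries, no covariates and Benjamini-Hochberg adjustment at 0.01. Standard errors and 95% intervals came from the same test. CPM are scaled by TMM. Floors cover counting error only. The steps were tested on simulated data. The members and lists were chosen with earlier results of these data known. All 8 members are named, and of each other list up to 4 genes that passed between the 4 populations with the largest difference of pDC from pre-cDC. Some listed adaptors are not reported here. Alternatives were DESeq2 1.42.0, its size factors, no filter, a cutoff of 0.05, the replicate number as a block, the deposited labels as groups and leaving out each library. 2 more were chosen after seeing the data, which left out both libraries richest in granulocyte markers or took the mitochondrial share as a covariate. The study sorted cells of 3 mice. The labels do not tie a replicate number to a mouse, while the Y-linked genes set all replicate 3 libraries apart, so blocked values stand beside the calls they change. The p-values measure the spread between these libraries.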

Additional observations from a re-analysis of the deposited data

How the results depend on the processing

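Between the 4 populations, Nfkb1, Nfkb2, Relb and Nfkbie passed under every alternative run except the deposited labels, under which 0 of the 8 genes and 0 of all genes passed and every count in the 6 comparisons was 0. Nfkbiz did not pass with DESeq2's size factors (adjusted p = 0.0145), the replicate block (0.0185) or without both granulocyte-rich libraries. It passed with the test of DESeq2 (4.10e-07) and without a filter (3.05e-14). With the mitochondrial share as a covariate, chosen after seeing the data, 8 genes passed between the 4 populations (28.6% of all genes), 2 from pre-cDC to lo-lo (6.14%), 5 from lo-lo to lo-hi (10.3%), 1 from lo-hi to pDC (Relb, adjusted p = 0.00937, 3.15%), 2 for lo-hi over pre-cDC (18%) and 6 for pDC over lo-lo (21.9%). At a cutoff of 0.05 the counts were 2 for lo-lo over pre-cDC (5.93% of all genes), 3 for lo-hi over pre-cDC (20%) and 5 for pDC over lo-lo (21.8%), and with DESeq2 they were 2 (3.79%), 2 (15.2%) and 5 (14.2%). Without a filter, 2 passed for lo-hi over pre-cDC (11%). Without both granulocyte-rich libraries, 0 passed from pre-cDC to lo-lo and 0 from lo-lo to lo-hi, in a fit with fewer lo-lo and lo-hi libraries. Shares of all genes in these comparisons are not given here for that fit.

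Leaving out 1 library gave 0 to 1 calls for lo-lo over pre-cDC (0 without pre-cDC replicate 3, lo-lo replicate 1 or lo-lo replicate 3), 0 to 2 for lo-hi over lo-lo (0 without lo-hi replicate 2, and 1 without any lo-lo replicate or lo-hi replicate 1), 1 to 2 for lo-hi over pre-cDC (2, with Nfkbiz, without pDC replicate 1 or 3), 3 to 4 for pDC over pre-cDC, 3 to 4 for pDC over lo-lo and 4 to 5 between the 4 populations. Over all genes, the calls between the 4 populations also moved, from 2411 to 3335, against 3043 with every library. Shares of all genes in the single comparisons are not given here for these fits. The direction turned in some of these fits for differences that did not pass: Nfkb2 in lo-hi over pre-cDC (-0.22 to 0.055), Rel in lo-lo over pre-cDC (-0.33 to 0.13) and, in pDC over lo-hi, Rel (-0.088 to 0.34), Rela (-0.094 to 0.064), Nfkbia (-0.0008 to 0.11) and Nfkbiz (-0.0058 to 0.74). Rela in pDC over lo-hi also turned without a filter (0.0038) and with the covariate (0.0020).

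Under the deposited labels, 17 of 48 log2 differences turned sign: for Nfkb1 0.033 (lo-hi over lo-lo), -0.29 (pDC over lo-hi) and 0.0022 (lo-hi over pre-cDC), for Nfkb2 0.62 (lo-lo over pre-cDC), -0.34 (pDC over lo-hi), 0.73 (lo-hi over pre-cDC) and -0.24 (pDC over lo-lo), for Rel 0.036 (lo-lo over pre-cDC) and -0.018 (lo-hi over lo-lo), for Rela -0.056 (lo-lo over pre-cDC) and 0.15 (pDC over lo-hi), for Relb 0.59 and for Nfkbia 0.0015 (both lo-lo over pre-cDC), for Nfkbia -0.067 (pDC over lo-hi), and for Nfkbie 0.39 (lo-lo over pre-cDC), -0.15 (pDC over lo-hi) and -0.11 (pDC over lo-lo). These groups mix populations by the match, which is their construction.

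Libraries with the same replicate number deviated from their group means with a mean correlation of 0.118 over 18 pairs (-0.15 to 0.309), against -0.0586 over 36 pairs of different numbers. The main tests had no block because the study's methods name none and the labels name no mouse. The Y-linked genes and these correlations leave it possible that a number is a mouse. The main p-values do not use such a pairing. With the replicate block, 3 genes passed from lo-lo to lo-hi, with Nfkbie (0.70, adjusted p = 0.00953) added, beside 6.95% of all genes. For pDC over lo-lo 4 passed, with Nfkbia (0.50, adjusted p = 0.00475) added, beside 17% of all genes. Without the block these shares were 5.17% and 13.8%. Beside the loss of Nfkbiz between the 4 populations, the block changed no other call of the 8 genes.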
